A study of Homo sapiens with 18 samples.

Results

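The counts examined here are those that remained when no label was given. They come from 4 of the 18 libraries of a series on neuroblastoma cells, chosen by their labels: 2 libraries of KELLY cells without 4-thiouridine and 2 libraries of KELLY cells labelled with it. KELLY is an established human neuroblastoma line with amplified MYCN, with the genotype given as wild type. The unlabelled group is described as untreated, with neither DMSO nor 4-thiouridine. The labelled group received DMSO and 500 uM 4-thiouridine for 2 h, so that label and DMSO cannot be told apart. Separate cultures are not named in the labels for the 2 libraries of a group, so p-values measure only how far these libraries differ, and that difference may be technical. Labelled libraries of KELLY with the SMARCA4 and SMARCA2 inhibitor BRM014, and of the neuroblastoma lines IMR-32 and SK-N-DZ with DMSO, are used only for reference. Sums over all labelled libraries and a fit on all 18 also take in IMR-32 and SK-N-DZ with BRM014. They further include the engineered SMARCA4-mAID line of IMR-32, with ethanol or with auxin.

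4-Thiouridine (4sU) is a uridine analogue that living cells take up and build into the RNA they make while it is present. Treating the RNA with an iodoacetate reagent modifies the sulfur so that reverse transcriptase tends to read a labelled U as a C, and reads with such conversions mark new RNA. Without 4sU, a read can still resemble a converted one through sequencing errors, genetic variants, RNA editing or misaligned copies, and unlabelled cells show how much of a gene's count such reads can make up. Editing by ADAR enzymes turns adenosine into inosine, which is read as guanosine, and acts mostly on double-stranded RNA. An A read as G differs from a U read as C, and the changes look alike only where a read is taken from the opposite strand. How strands were handled in these counts is not known. In human transcripts such RNA often forms where 2 copies of a repeat lie in opposite orientation.

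The unlabelled libraries held 5395 and 4432 gene counts, against 1590402 and 1235931 in the labelled ones. Summed over replicates, the count without label was 0.348% of the labelled count, 0.339% for replicate 1 and 0.359% for replicate 2. All percentages of this kind are ratios of raw counts and are not scaled for sequencing depth, which the files do not state. The groups did not overlap, but with 2 libraries each an exact two-sided permutation test cannot go below p = 0.333. Reads listed as having no feature came to 12260 and 11562 without label and to 1547724 and 1607964 with it. In both groups the replicates differed by more than sampling noise, with chi-square values per degree of freedom of 3.24 over 158 genes without label and 3.31 with it. The adrenergic regulators that define the line were all counted in both labelled libraries, at 15269 and 13862 counts per 1e6 (CPM) for the list of 20. Markers of blood, endothelial and Schwann cells had 0 counts without label, where an equal share would have given 0.0313 and 0.212 counts, so that their level was not detectable at this depth. Mesenchymal and fibroblast markers were at 4263 and 4061 CPM without label and 252 and 282 CPM with it, as described further on.

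Counts without label were spread thinly over many genes and heavily over a few. Of the 28063 genes in the files, 2504 (8.92%) had at least 1 count: 1707 in replicate 1, 1420 in replicate 2 and 623 in both. A single count was all that 1440 genes had, 423 had 2 and 641 had 3 or more. The 158 genes with 10 or more counts held 54.8% of all counts, and the 15 genes with most counts held 23.4%. Those 15 genes made up 0.588% of the labelled counts. Leaving them out lowered the background over all genes from 0.348% to 0.268%.

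Among the 10694 genes with at least 20 summed labelled counts, 2239 (20.9%) had a count without label and 8455 had none. The background reached 1% of the labelled count in 910 of them, 5% in 190 (1.78%), 10% in 73 and 50% in 8. It exceeded the labelled count in 1 gene, CCDC124, a ribosome-associated coiled-coil protein gene named here after its values were seen. CCDC124 had 32 counts in unlabelled replicate 1, 0 in replicate 2, and 15 and 5 with label. The share of genes with a count rose with the labelled count, from 12.2% in the band from 20 to under 100 labelled counts to 70.0% at 3000 or more. The summed background as a percent of labelled counts went the other way, from 0.542% in that band to 0.347% from 300 to under 1000 counts and 0.279% at 3000 or more, with its lowest value, 0.231%, from 1000 to under 3000.

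A gene's share of all counts was then compared between the groups, with a difference of 0 where its background percent equals that of all genes together. Of 8443 genes tested, 281 (3.33%) held a higher share without label and 66 (0.782%) a lower share (edgeR's quasi-likelihood test, Benjamini-Hochberg adjusted p under 0.05), 4.11% in either direction. The 281 genes held 60.3% of the unlabelled and 3.02% of the labelled counts, with a median background of 6.25%. In 251 of them both unlabelled shares lay above both labelled ones, as in 5.77% of all tested genes. All 66 genes with a lower share had both unlabelled shares below both labelled ones, but so had 77.7% of all tested genes, most tested genes having no count without label. Of the 66, 54 had 0 counts. Lower calls needed many labelled counts: each of the 66 genes had at least 1569. With trimmed-mean (TMM) scaling 176 genes were higher and 2350 lower. It moved the log2 differences by a median of -1.92 over 156 of the genes with counts without label. DESeq2 called 447 higher and 77 lower. With 1 library left out there were 91 higher and 2 lower calls without labelled replicate 1, 94 and 3 without labelled replicate 2, 168 and 9 without unlabelled replicate 1, and 195 and 19 without unlabelled replicate 2.

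**Figure D1:**
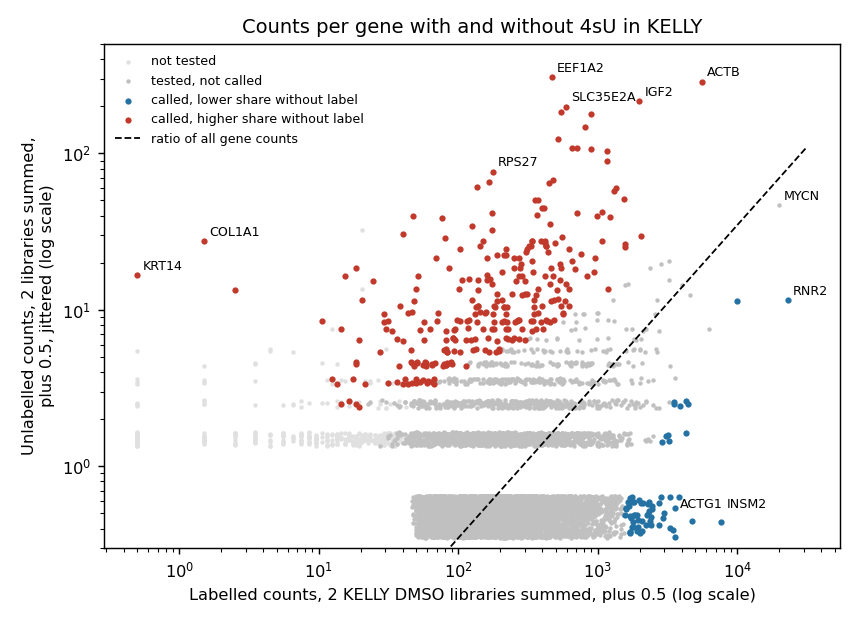
Summed counts per gene in the 2 labelled libraries (x axis, counts plus 0.5, log scale) and in the 2 unlabelled libraries (y axis, counts plus 0.5, jittered, log scale), with 1 point per gene and the dashed line at 0.348%. Red points are the 281 genes with a higher share without label, blue points the 66 with a lower share; MYCN lies just under the line and EEF1A2 far above it.

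The highest count without label was that of EEF1A2, the form of translation elongation factor eEF1A made in neurons and muscle (chromosome 20, 63488012 to 63499322, minus strand). It had 199 and 108 counts without label and 328 and 138 with it. Its background was therefore 65.9% of the labelled count (exact 95% interval 56.9% to 76.3%, counting error only, as for all intervals here). As a share, EEF1A2 was at 30627 ± 8851 CPM (SD, n = 2) without label and 159 ± 66.9 with it, a log2 difference of 7.58 (SE 0.30, adjusted p = 4.54e-98 by edgeR). In raw counts the groups overlapped, with unlabelled replicate 1 above labelled replicate 2; in shares they did not. With BRM014 the labelled counts were 51 and 143, in IMR-32 23 and 13, and in SK-N-DZ 413 and 476. The unlabelled KELLY count was thus larger than the labelled count of IMR-32 in each library.

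ACTB, the gene of the cytoskeletal actin beta, followed with 202 and 85 counts without label against 3391 and 2178 with it, 5.15% (4.56% to 5.80%; log2 difference 3.88, adjusted p = 5.62e-40 by edgeR). IGF2, an imprinted growth factor gene, had 61 and 154 counts against 1287 and 689, which is 10.9% (9.41% to 12.5%). Its replicates went in opposite directions, with the higher unlabelled count in replicate 2 and the higher labelled count in replicate 1. IGF2 was at 316 and 297 counts with BRM014 in KELLY, 0 and 0 in IMR-32 and 0 and 1 in SK-N-DZ.

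Next came 4 genes with 147 to 198 summed counts whose unlabelled replicates lay close together. SLC35E2A, of the solute carrier 35 family (chromosome 1, 1724838 to 1745999), had 104 and 94 counts against 336 and 252, or 33.7% (28.5% to 39.6%). This gene has a near-identical neighbouring copy, so its reads are uncertain. PRR11, a proline-rich protein gene active in the cell cycle (chromosome 17, 59155499 to 59204705), had 97 and 86 against 336 and 212, or 33.4% (28.1% to 39.6%). SSR3, a subunit of the translocon-associated complex of the endoplasmic reticulum, had 96 and 82 against 451 and 447, or 19.8%. DCAF16, a substrate receptor of the CUL4 ubiquitin ligase, had 75 and 72 against 456 and 360, or 18%. In all 4 genes every unlabelled count lay below every labelled count.

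The other genes of the 15 had 67 to 123 summed counts. NUP43, a nuclear pore subunit, had 62 and 61 counts against 293 and 226 (23.7%), and RPS27, a protein of the small ribosomal subunit, had 45 and 31 against 85 and 91 (43.2%, 32.6% to 56.8%). GNL3L, a nucleolar GTPase gene, was at 16.5%, and SNRPD3, a core protein of spliceosomal particles, at 15.2%. RBM8A, a subunit of the exon junction complex, stood at 14.1% and HNRNPL, a splicing regulator, at 12%. Fatty acid synthase, FASN, was at 8.86%. All 15 genes were called higher, with log2 differences of 3.88 to 7.58, and none lost its call with TMM scaling or DESeq2. They were chosen by their unlabelled counts in these same libraries, which favours such a call. The calls are therefore given as a description.

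**Figure D2:**
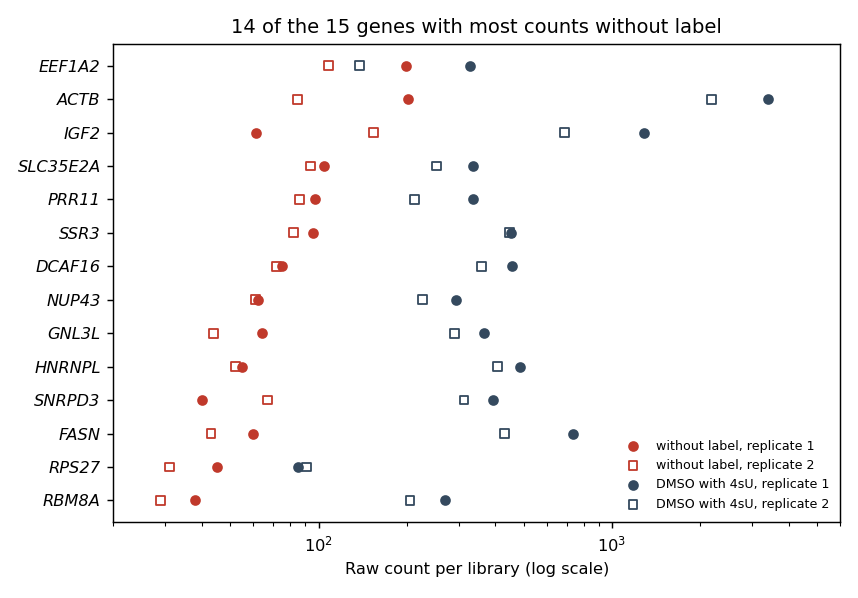
Raw count per library (x axis, log scale) of 14 of the 15 genes with most counts without label (y axis), with red symbols for the 2 unlabelled and dark symbols for the 2 labelled libraries, circles for replicate 1 and squares for replicate 2. EEF1A2 and RPS27 have the smallest gaps between the groups; in IGF2 the unlabelled replicates are 61 and 154.

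Other genes with a large background had fewer counts. Of the 8443 tested genes, 158 passed the filter on low values only with the help of an unlabelled library, and 54 of the 281 higher calls were among them. Passing in this way favours a higher share without label, so these 54 calls are given as a description only. Among the 8285 genes that passed in both labelled libraries, 227 were higher (2.74%). LIMD1, a LIM-domain scaffold gene, had 36 and 24 counts against 80 and 56, or 44.1% (32.0% to 60.2%). CHCHD10, a mitochondrial protein gene, had 29 and 9 against 26 and 50, or 50.0%. MIR4461, annotated as a microRNA gene on chromosome 5 (134928039 to 134928112), had 20 and 19 against 31 and 16, or 83.0% (52.8% to 129.6%). BAG6, a chaperone of the major histocompatibility region, had 9 and 21 against 21 and 19, or 75.0%. SPOCK3, a secreted proteoglycan gene, had 2 and 16 against 12 and 6, so that 1 library held most of its background. Further genes of this kind were ACBD7 at 10 and 6 against 11 and 4, CCDC9 at 13 and 2 against 16 and 8, and ASB16 at 4 and 7 against 6 and 14. In MIR4461, BAG6, SPOCK3, CHCHD10, ACBD7, CCDC9 and ASB16 the raw counts of the groups overlapped. Among the genes named in this paragraph, only LIMD1 and CHCHD10 passed the filter in both labelled libraries. MIR4461, BAG6, SPOCK3, ACBD7, CCDC9 and ASB16 passed with the help of an unlabelled library, so their calls support nothing.

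Another 3 genes, with 13 to 27 counts without label, had almost no labelled counts. KRT14, a keratin of basal epidermal cells (chromosome 17, 41582279 to 41586921), had 10 and 6 counts without label and 0 in all 16 labelled libraries of the series. COL1A1, the alpha chain of type I collagen of fibroblasts, bone and skin, had 14 and 13 against 0 and 1, a ratio of 2700% with an interval of 445% to 110544%. Over the 16 labelled libraries COL1A1 had 5 counts, in 3 of them. KRT16, a keratin of stressed epidermis, had 8 and 5 against 0 and 2, and 4 counts in 2 of the 16 libraries. All 3 genes passed the filter through the unlabelled libraries only, so their counts are given as a description and their calls support nothing.

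A list of 32 epidermal genes was then compiled, chosen after these values were seen. Of its members, 9 had counts without label, 24 in replicate 1 and 18 in replicate 2, which is 4449 and 4061 CPM. In the 16 labelled libraries the list summed to 4.36 to 136 CPM. KRT14 and KRT16, which prompted the list, held 29 of the 42 counts, and the members with most labelled counts, DSC3 (2 and 0 against 87 and 81) and JUP (0 and 1 against 116 and 57), were not called. DSP, the desmosomal protein desmoplakin, had 0 and 3 counts without label and 0 in all labelled libraries. KRT10, a keratin of upper epidermal layers, had 3 and 1 against 9 and 9. Mesenchymal and fibroblast markers also took a larger share without label, with 23 and 18 counts in 5 of 19 members. Of the 3 tested members that passed the filter in both labelled libraries, 1 was called higher, TWIST1, a factor of mesenchymal cells, at 7 and 1 counts against 234 and 250 (adjusted p = 0.0287 by edgeR). Its call was lost with TMM scaling, with no filter (adjusted p = 0.0591 by edgeR), and without unlabelled replicate 1 (log2 difference 0.38) or either labelled library (adjusted p of 0.815 to 0.820 by edgeR). COL1A1 held 27 of these 41 counts, and the type III collagen COL3A1 had 1 and 1 against 0 and 0. In such bulk libraries fewer cells of a type and less RNA per cell cannot be told apart, and the part of RNA from other cells in these counts was not tested.

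The genes with a lower share were those with many labelled counts and few or none without label. RNR2, the mitochondrial large ribosomal RNA by its RefSeq entry, had 8 and 3 counts without label and 17270 and 5671 with it. That is 0.0479% (0.0239% to 0.0858%), where an equal share would have given 79.8 counts (log2 difference -2.79, SE 0.47, adjusted p = 2.59e-07 by edgeR). Labelled replicate 1 held most of its labelled counts, and without that library it was at -2.06 with adjusted p = 0.218 by edgeR. RNR1, the small mitochondrial ribosomal RNA, had 1 and 1 against 1169 and 336 and was not called.

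INSM2, a zinc finger gene of neuroendocrine cells (chromosome 14, 35534042 to 35537054), had 0 counts without label and 4173 and 3460 with it. An equal share would have given 26.5 counts, and taking 3 counts over the 2 libraries as the floor, INSM2 was at least 8.85-fold lower (adjusted p = 3.68e-07 by edgeR). KPNA2, an importin, had 0 counts against 2703 and 2049 and was at least 5.51-fold lower. These 2 calls held with each library left out. Also at 0 without label were SRSF2, a splicing factor (at least 4.45-fold lower), TXNIP, an inhibitor of thioredoxin (4.15), ACTG1 (4.12) and EIF4A2, an RNA helicase of translation initiation (4.01). CYB561, a cytochrome of secretory vesicles (3.85), the 14-3-3 protein gene YWHAG (3.83), the small nucleolar RNA host SNHG16 (3.48) and the homeodomain gene ADNP (3.42) had none either. CDK6, a cell cycle kinase, had 0 and 1 counts against 2452 and 1857. Of these last 9 genes, all lost their calls with either labelled library left out (adjusted p of 0.0939 to 0.392 by edgeR).

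Background differed within some families of related genes and was similar in others, set side by side after their values were seen. In 1 pair the calls went in opposite directions: ACTB had 287 counts without label and ACTG1, which encodes the nearly identical actin gamma, had 0 and 0 against 2204 and 1352. A count of 0 allows a background of up to 0.0844% for ACTG1. EEF1A2 had 307 counts and EEF1A1, the widely expressed form, had 3 and 2 against 1081 and 931, or 0.249% (0.0806% to 0.581%), not called. CHGA, the granule protein chromogranin A, had 22 and 7 against 312 and 243, or 5.23%, and was called higher, and CHGB, at 0 and 3 against 130 and 109 or 1.26%, lay on the same side but was not called. Among beta tubulins, TUBB had 8 and 6 against 257 and 196 (3.09%, higher) and TUBB2B 2 and 0 against 146 and 85 (0.866%, not called). Alpha tubulins were not called, with TUBA1A at 3 and 1 against 347 and 295 (0.623%) and TUBA1B at 0 and 1 against 1102 and 1075 (0.0459%). Nor were the chaperones HSP90AA1 at 0.247% and HSP90AB1 at 0.349%. The difference between the members of a pair was not tested, and reads of close copies may have been assigned to either.

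The genes that define the cell line had, as a list, a summed background near that of all genes, though PHOX2A, called higher, held a large part of it. MYCN, the amplified oncogene of the line (chromosome 2, 15940564 to 15947007), had 35 and 11 counts without label against 12024 and 7844 with it, or 0.232% (0.169% to 0.309%). An equal share would have given 69.1 counts, and the difference was not called (log2 difference -0.58, SE 0.33, adjusted p = 0.449 by edgeR). HAND2 had 0 and 3 against 2118 and 1461, GATA3 4 and 2 against 1045 and 834, and ISL1 0 and 0 against 602 and 525, none of them called. TBX2 and RET had 0 counts without label. In the noradrenaline pathway TH had 2 and 0 counts against 197 and 89 and DBH 0 and 3 against 351 and 284. PHOX2A, a homeodomain factor of neuroblastoma, had 24 and 18 counts against 623 and 458, or 3.89% (2.78% to 5.29%; adjusted p = 1.81e-20 by edgeR). Over the 20 adrenergic regulators the background was 0.295%, and 0.353% without MYCN, with 12 members counted, 2 of 20 tested higher and 1 lower. The second higher member was SIX3, at 1 and 6 against 45 and 36, a call lost without unlabelled replicate 2 or either labelled library (adjusted p of 0.684 to 0.820 by edgeR). For the 20 noradrenergic genes the background was 0.472%, and 0.156% without CHGA, with 1 of 18 higher and 1 lower. These calls are to be read against the same shares of all tested genes.

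In some lists 1 member held most of the counts without label. The shares of called members below are to be read against 3.33% higher and 0.782% lower among all tested genes. Among genes that passed the filter in both labelled libraries, 2.74% were higher. Lower calls were found only in genes with at least 1569 labelled counts, so lists with high labelled counts have more room for them. Translation factors summed to 2.15%, with 2 of 18 tested members higher and 1 lower, and to 0.310% without EEF1A2. The other higher member was PABPC1, a poly(A)-binding protein, at 8 and 5 counts against 709 and 473 (log2 difference 1.67, adjusted p = 0.0317 by edgeR), which under TMM scaling stood at -0.25 and lost its call with any 1 library left out (adjusted p of 0.130 to 0.820). Tubulins, actins and axonal proteins summed to 1.63%, with 4 of 28 higher and 2 lower, and to 0.695% without ACTB, which is still above the value of all genes. MARCKS, a substrate of protein kinase C, had 6 and 51 counts against 763 and 540 and lost its call without unlabelled replicate 2 (adjusted p = 0.684 by edgeR). PFN2, an actin-binding profilin, had 27 and 12 against 638 and 585, or 3.19%.

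Ribosomal proteins, too, were above the background of all genes without their top member. The 79 genes summed to 0.847%, and to 0.559% without RPS27. Of the 78 with at least 20 labelled counts 50 had a count (64.1%, against 20.9% of all such genes), with a median background of 0.322% where the median of all genes was 0. Their median labelled count was 269, against 142 for all such genes. By the test 5 of 72 (6.94%) were higher and 0 lower. RPS29 had 9 and 5 counts against 303 and 286, and RPL8 had 1 and 11 against 168 and 118. Both calls were lost with either labelled library left out (adjusted p of 0.267 to 0.731 by edgeR), and RPL8 was at a log2 difference of 0.88 without unlabelled replicate 2 (adjusted p = 0.684). Duplicated gene families, whose reads can map to several copies, summed to 1.12%. Of the 19 tested members that passed the filter in both labelled libraries 1 was higher, NPIPB5 at 2 and 5 counts against 41 and 21, a call lost without unlabelled replicate 2 or either labelled library (adjusted p of 0.236 to 0.747 by edgeR). PMS2P4, at 1 and 7 against 18 and 13, and POTEJ, at 2 and 1 against 13 and 4, passed only through the unlabelled libraries.

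Several lists lay well below 0.348%. That value is raised by the 281 higher genes, which held 60.3% of the unlabelled and 3.02% of the labelled counts. A list without such genes therefore tends to lie below it, and the value of all other genes together was not computed. Immediate early and other unstable messengers, which turn over fast, summed to 0.0439%, with 6 of 32 members counted, 0 of 28 higher and 2 lower. MCL1, an unstable survival factor, had 1 and 0 counts against 1814 and 1404, a call lost with any 1 library left out (adjusted p of 0.0651 to 0.820 by edgeR). Small nucleolar RNA hosts summed to 0.0428%, with 0 of 21 higher and 2 lower, and the 2 mitochondrial ribosomal RNAs to 0.0532%. DNA replication genes were at 0.123% with no call among 30, nuclear-encoded respiratory chain subunits at 0.154% with none among 34, and chaperones at 0.163% with 1 of 29 lower. SWI/SNF subunits, the complex the inhibitor acts on, were at 0.173% with no call among 22. SMARCA4 had 0 and 2 counts against 184 and 141, and SMARCA2 had 0 in all 4 libraries. Genes listed for nucleoside transport and pyrimidine salvage, with the pyrimidine synthesis gene CAD among them, were at 0.125% with no call among 12.

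The remaining lists were nearer to the value of all genes or had few counts. Glycolysis genes summed to 0.274% with no call among 16, and GAPDH, with 5 and 4 counts against 1509 and 1079, was at 0.348%. The MYCN neighbourhood on 2p24 was at 0.190% and at 0.0622% without MYCN, with no call among 11. Long non-coding RNAs were at 0.288% and at 0.150% without MEG3, with 0 of 13 higher and 2 lower. MEG3, an imprinted RNA, had 13 and 0 counts against 10 and 10 and was too low to be tested, as were DNM3OS at 3 and 0 against 7 and 5 and the abundant nuclear RNA MALAT1 at 0 and 1 against 10 and 13. Replication-dependent histones had 4 counts, all in replicate 1, and histocompatibility genes 2, with too few labelled counts to test.

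**Figure D3:**
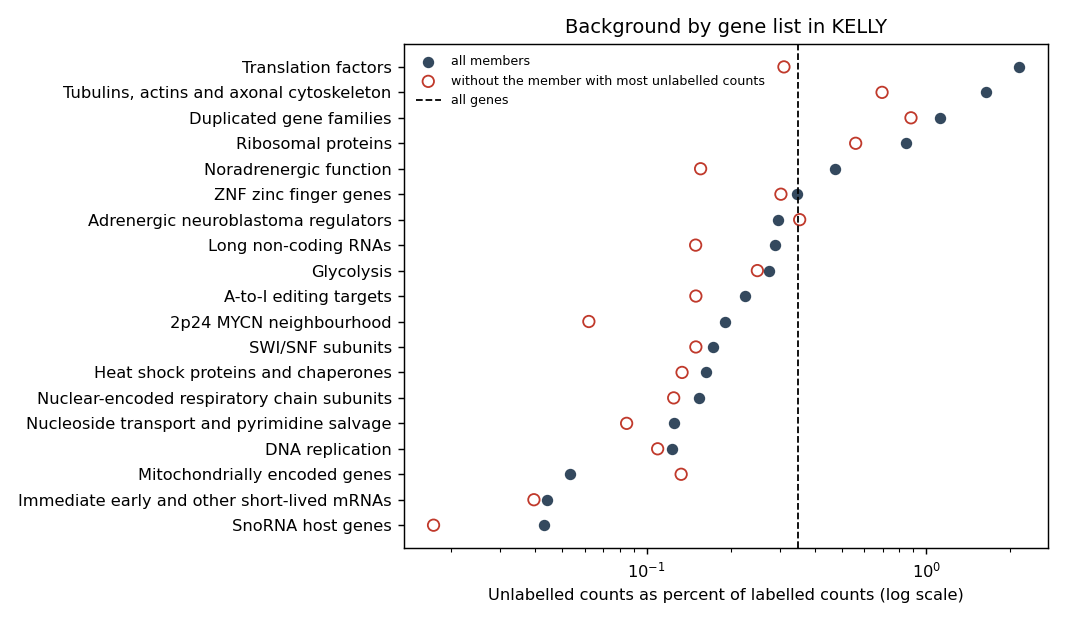
Summed counts without label as a percent of summed labelled counts (x axis, log scale) for each gene list with at least 1000 labelled counts (y axis), filled for all members and open without the member with most unlabelled counts; the dashed line marks 0.348%, the value of all genes. Translation factors go from 2.15% to 0.310% without EEF1A2, and ribosomal proteins from 0.847% to 0.559% without RPS27.

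In some genes 1 unlabelled library held nearly all counts. Of the genes with 10 or more counts, 7 had at least 90% of them in 1 library: CCDC124 (32 and 0), MEG3 (13 and 0), MICAL3 (10 and 0) and TMED9 (9 and 1) in replicate 1, and RRNAD1 (0 and 13), RPL8 (1 and 11) and SF3A1 (1 and 20) in replicate 2. Their labelled counts lay between 20 and 961. Leaving out all such genes left 276 of the 281 higher calls.

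Genes whose transcript held inverted stretches, any 20 bases that recur as their exact reverse complement, had more background than genes without them. The longest GENCODE basic transcript (release 29, GRCh38) was found for 25902 of the 28063 genes, and 1494 of them held such stretches. These were 9.29% of the genes tested and matched, 31.0% (85 of 274) of those with a higher share, 4.62% of those with a lower share and 8.59% of those not called. Of 779 tested genes with inverted stretches 10.9% were higher, and of 7607 without them 2.48%. Here and in the bands of length below, the higher genes include those that passed the filter only with the help of an unlabelled library. These shares were not computed without such genes. Summed background was 0.903% with them, 0.833% for replicate 1 and 0.991% for replicate 2. Without them it was 0.290%, 0.289% and 0.291%. When the 15 genes with most counts were left out, the values were 0.668% and 0.225%. Among genes with at least 20 labelled counts, the median labelled count was 180 and 140 and the median transcript length 6650 and 3455 bases. The part of editing or misalignment in these counts was not tested.

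Within bands of transcript length the share of higher genes kept this order, while summed background did not in the shortest band. Under 2500 bases 3 of 22 tested genes with inverted stretches and 3.73% of 2040 without them were higher, with a summed background of 0.495% and 0.579%. From 2500 to under 5000 bases 13.1% and 1.96% were higher, and the background was 1.65% and 0.221%. From 5000 bases on 10.0% and 2.13% were higher, and the background was 0.710% and 0.202%.

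Among the 15 genes with most counts, 4 held inverted stretches, SLC35E2A, SSR3, DCAF16 and NUP43, with 646 of the 2295 counts. EEF1A2, ACTB, IGF2, PRR11 and RPS27 had none in the longest transcript. In the 60 genes with most counts, each with at least 24, 22 held a pair of inverted arms that do not overlap, of 23 to 54 bases, both in the 3′ untranslated region in 21 of the 22. Arms were looked for in these 60 genes only, so no share over all genes can be set beside these numbers. Whether this placement is particular to genes with background was not tested. Zinc finger genes named ZNF, as a list, were at 0.345% with 16 of 352 (4.55%) higher and 3 lower. The 3 ZNF genes with most counts held inverted stretches: ZNF587 at 17 and 24 counts against 370 and 341 (5.77%), ZNF780B at 14 and 13 against 239 and 180 (6.44%) and ZNF431 at 16 and 9 against 230 and 198 (5.84%). Genes known as targets of adenosine editing were at 0.226% as a list, with 1 of 17 higher and 1 lower. MDM2, which holds inverted stretches, had 6 and 2 counts against 710 and 602 and was not called. The actin crosslinker FLNA, without them, had 3 and 4 against 295 and 112 (adjusted p = 0.0378 by edgeR, lost with any library left out, at 0.607 to 0.820).

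**Figure D4:**
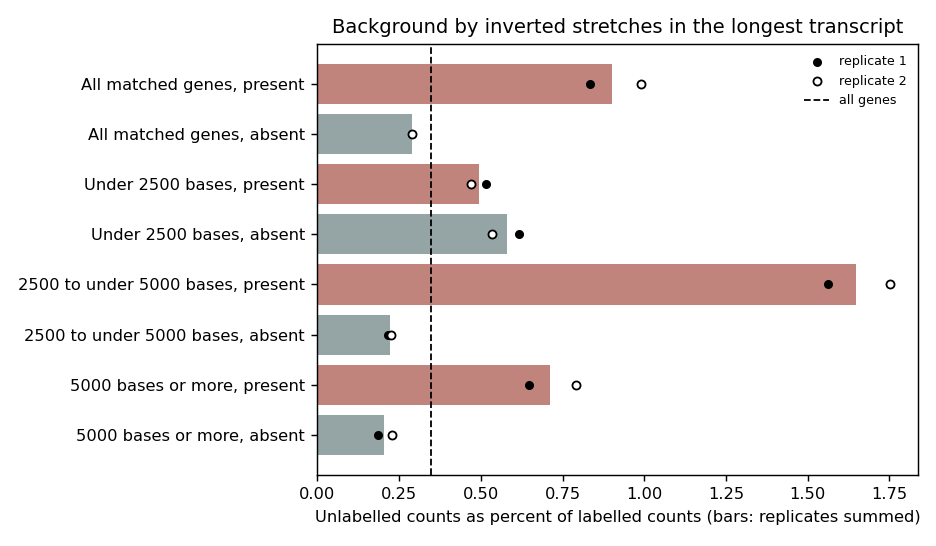
Summed counts without label as a percent of summed labelled counts (x axis) for genes whose longest transcript holds (present) or lacks (absent) inverted stretches of 20 bases, over all matched genes and for tested genes in 3 bands of transcript length (y axis), with bars for both replicates summed, points for each replicate and the dashed line at 0.348%. The values over all matched genes are 0.903% and 0.290%; under 2500 bases the order is the other way, at 0.495% and 0.579%.

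Base composition and length are given as a description, with no test. The median T content of the longest transcript was 26.2% in tested genes, 24.1% in those with a higher share and 29.5% in those with a lower share. The median GC content was 46.4%, 51.1% and 42.0%. The median length was 3875, 4026 and 4922 bases. Since lower calls needed many labelled counts, genes without a call and with at least 300 labelled counts are nearer to them in level, and these had medians of 27.7% T, 43.7% GC and 4645 bases.

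To show how a background of this size would bear on ratios between treated and control libraries, the mean unlabelled counts were subtracted from the KELLY counts with BRM014 and with DMSO, which share these DMSO libraries with the values above, so the result is a description only. Raw counts were subtracted without scaling for sequencing depth, which is not known. Of the 190 genes with at least 5% background, 186 still had a ratio, whose log2 value moved by a median of 0.0382 in size and by over 0.25 in 13 genes. Below 5%, 10481 of 10504 genes had a ratio, with a median shift of 0 and a shift of over 0.25 in 8 genes. Genes chosen by a large background move more by construction. For CHGA the BRM014 to DMSO ratio was 0.128 before and 0.0837 after subtraction, and for IGF2 0.291 and 0.212. SLC35E2A went from 1.27 to 1.45, CHCHD10 from 1.21 to 1.48 and RPS27 from 0.745 to 0.599, while ACTB stayed at 0.949. EEF1A2 had 194 summed counts with BRM014, fewer than its 307 without label, so no ratio remained.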

How the data were processed

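The authors deposited raw counts per gene symbol, 1 file per library, described in their names as conversion counts. The submitters' processing notes name HISAT, HTSeq, DESeq2 and hg38, with no version and no role. Not given in the sources used here are the annotation, the strand setting and what made a read count as converted, so overlapping and antisense genes cannot be separated. RNA was captured on poly(dT), per the labels' protocols, and whether unlabelled RNA was treated with iodoacetate is not clear from them. Summary lines (no feature, ambiguous) stayed out of library sizes and tests. Without label they held 12260 and 11562 reads with no feature and 1144 and 1329 ambiguous reads. Ambiguous reads were thus 6.09% and 7.67% of all reads listed without label. In the labelled KELLY libraries with DMSO they were 51795 and 48111, or 1.62% and 1.66%.

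For shares, edgeR (4.0.16, under R 4.3.3) was run with its quasi-likelihood test on the 4 libraries (2 residual degrees of freedom, biological coefficient of variation 0.130), with the logarithm of total gene counts as offset and the filterByExpr filter (at least 16.1 counts per 1e6 in 2 libraries). DESeq2 1.42.0 and the other alternatives are described last. The fit was tested on simulated data: with 8443 genes, 75 of 100 genes changed 16-fold and 6 of 100 changed 4-fold were recovered, and 1 of 82 calls was false. Every simulated gene had the same coefficient of variation, 0.130, and all changes were increases without label. Real genes may vary more between replicates, so the part of false calls among the real higher and lower calls cannot be read from this. Levels in CPM use the same totals. Intervals of a ratio are exact binomial (Clopper-Pearson, 95%), and a count of 0 was taken as at most 3.

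Named genes were the 15 with most counts without label, the 12 with the largest higher share (at least 10 counts) and the 12 with the smallest p of a lower share, up to 3 members of each of 24 lists with most counts, and 18 fixed genes. The libraries and lists were chosen with earlier results of these data known, and the epidermal list and the gene pairs after the values were seen. Gene symbols were matched to GENCODE release 29 (GRCh38) by name or by a RefSeq synonym for 25902 of 28063 genes; RNR1 and RNR2 were identified from RefSeq. Some genes and sequences are not reported here.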

Additional observations from a re-analysis of the deposited data

How the results depend on the processing

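Of the 281 higher and 66 lower calls, the count moved to 176 and 2350 with TMM scaling, to 447 higher with DESeq2 (77 lower, of 2550 genes with an adjusted p), and over the 4 left-out libraries to 91 to 195 higher and 2 to 19 lower. All 176 higher calls under TMM scaling and 269 of those by DESeq2 were among the 281. Unfiltered counts, a minimum of 50 labelled counts and a fit on all 18 libraries gave 294, 225 and 281 higher calls. PABPC1 turned to -0.25 with TMM scaling. The TMM factors were 0.512 and 0.515 with label and 1.71 and 2.22 without it, and the shift is over 156 genes. At an unadjusted p under 0.05, 471 genes were higher and 657 lower.

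The background of all genes was 0.594% with the no-feature and ambiguous reads added, 0.268% without the 15 genes with most counts, 0.326% against BRM014 and 0.309% to 0.398% with 1 library left out. Genes at 5% or more were 287 with a minimum of 10 labelled counts, 128 with one of 50, and 191 to 237 with 1 library left out. Genes with counts were 641 at 3 or more, 158 at 10 or more and 623 with a count in each library.

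Replicate numbers are shared by the groups, but with a correlation of 0.023 between the deviations of same-numbered libraries over 155 genes there was no sign that they pair them. With the replicate block, 123 genes were higher and 10 lower. Of 58 named genes with a call, 14 lost it with the block, 2 with DESeq2 and 10 to 23 with 1 library left out. Of 41 named genes without a call, 21 were called lower with TMM scaling. At this depth a gene under about 1569 labelled counts was not called lower, so that a background below that of all genes was not detectable in most genes.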
